A study of Sus scrofa with 12 samples.

Results

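Calcineurin is a phosphatase activated by calcium and calmodulin that carries the calcium signal of an active muscle fiber to its nuclei. It removes phosphate from the NFAT transcription factors, which then enter the nucleus. The class IIa histone deacetylases hold MEF2 factors silent until calcium-dependent kinases send them out of the nucleus. In skeletal muscle both branches are known for their part in the slow, oxidative fiber program and in fiber growth. The 10 genes studied here are PPP3CA and PPP3CB, which encode catalytic subunits of calcineurin, RCAN1, which encodes an inhibitor of it, the NFAT genes NFATC1 to NFATC4, and the deacetylase genes HDAC4, HDAC5 and HDAC9.

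The assay was ATAC-seq, in which a transposase inserts adapters into open chromatin and leaves most reads there. The tissue was the longissimus dorsi, the long muscle of the back, from 3 Duroc and 3 Luchuan boars. All boars were aged 180 days and kept under the same conditions, Duroc being a lean breed and Luchuan a fat breed. The peak table gives 1 read count per breed for each peak interval, so no value here has an error between animals, and a difference between the breeds cannot be told apart from one between their libraries. The RNA libraries of the series were not used.

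An interval belonged to a gene when its midpoint lay in the gene body on Sscrofa11.1 or within 10 kb of it. This gave 498 of the 217213 intervals, which became 319 of 140081 regions after overlapping common intervals were merged, or 0.228% of the regions. HDAC9 had 67 regions, PPP3CA 61, HDAC4 44, NFATC3 36, NFATC2 30, PPP3CB 27, NFATC1 24, RCAN1 13, HDAC5 11 and NFATC4 6. Of the 319 regions, 275 lay inside the gene body and 44 beside it, and 20 also lay in the body of another protein-coding gene. The authors marked 159 of them as common to both breeds, 112 as specific to Duroc and 48 as specific to Luchuan. These are 49.8%, 35.1% and 15.0%, against 49.1%, 31.8% and 19.1% of all regions. No genome sequence was used, so no sequence of a region is shown.

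The Duroc column was the deeper one, with 20760292 Duroc reads and 13746432 Luchuan reads in all regions. Each column was read as pooled over the 3 boars of its breed, which could not be checked. Per region of the 10 genes the medians were 79 Duroc and 47 Luchuan reads, and over all regions they were 61 and 38. Luchuan counts were multiplied by 1.48, which sets the median ratio of common regions to 1, and differences are given as log2 of scaled Luchuan over Duroc reads. Negative values are higher in Duroc. Ranges in parentheses are 95% Clopper-Pearson intervals, which cover counting error only and hold no spread between boars. As a check of the tissue, the 10 skeletal muscle fiber markers such as ACTA1, CKM and TTN had a median of 183 Duroc reads per kb of gene and flanks, against 72.0 for the 3 satellite cell markers and 17.9 for the 4 smooth muscle markers. The medians were 9.41 for the 8 immune, 8.22 for the 5 adipocyte, 6.98 for the 5 fibroblast and 0.969 for the 6 endothelial markers, and 1.14 for the 4 liver and neuron genes.

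Summed over its regions, each of the 10 genes differed by less than 1.5-fold between breeds. NFATC1 was the most accessible in Luchuan relative to Duroc, with 3977 Luchuan and 5261 Duroc reads and a log2 ratio of 0.16 (0.10 to 0.22). PPP3CB was at the other end, with 3051 Luchuan and 5548 Duroc reads and -0.30 (-0.36 to -0.23), or 1.23-fold higher in Duroc. The counting interval lay above 0 for NFATC1 and NFATC2 and below 0 for PPP3CB, NFATC3, HDAC5, HDAC9, PPP3CA and HDAC4. It held 0 for RCAN1 and NFATC4. The calls of PPP3CA and HDAC4 ended with scaling by the total reads in regions, at -0.049 (-0.10 to 0.0050) and -0.025 (-0.074 to 0.024). HDAC4 also lost its call with scaling by a running median and with each interval as its own region, and with common regions alone PPP3CA, HDAC4 and HDAC9 lost theirs. Of all 15187 protein-coding genes with at least 200 reads, 22% had an interval above 0 and 27.2% one below 0. Those shares are not matched for reads, and intervals narrow as reads rise, so a gene with many reads can be called at a small difference. The counts of called genes here and in the lists below therefore cannot be compared with them directly. A difference of 1.5-fold was reached by 1.59% of all genes toward Luchuan and by 2.41% toward Duroc. The median of the 10 genes was -0.067 and that of all genes -0.014.

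**Figure D1:**
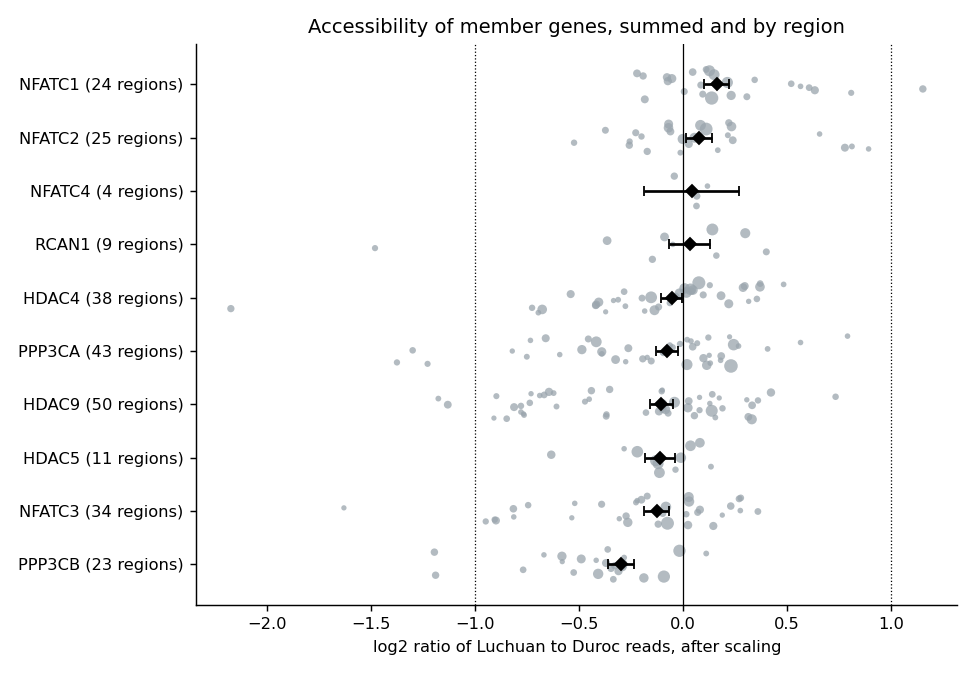
The x axis gives the log2 ratio of scaled Luchuan to Duroc reads, with 0 as a solid and a 2-fold difference as dotted lines. Black diamonds are the reads summed over a gene with their 95% counting interval, and grey points are its single regions with at least 50 reads, larger where they hold more reads. The sums lie between -0.30 for PPP3CB and 0.16 for NFATC1, and single regions reach from -2.17 in HDAC4 to 1.15 in NFATC1.

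In the order of the sums, from NFATC1 through NFATC2, NFATC4, RCAN1, HDAC4, PPP3CA, HDAC9 and HDAC5 to NFATC3, the interval of each gene overlapped that of the next. PPP3CB alone stood below its neighbour without overlap. Among all genes with enough reads, PPP3CB was at the 10th percentile and NFATC1 at the 80.7th, and the other members lay between the 27.9th and the 67.7th. The middle 90% of all genes ran from -0.43 to 0.36, and all 10 genes lay within it.

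**Figure D2:**
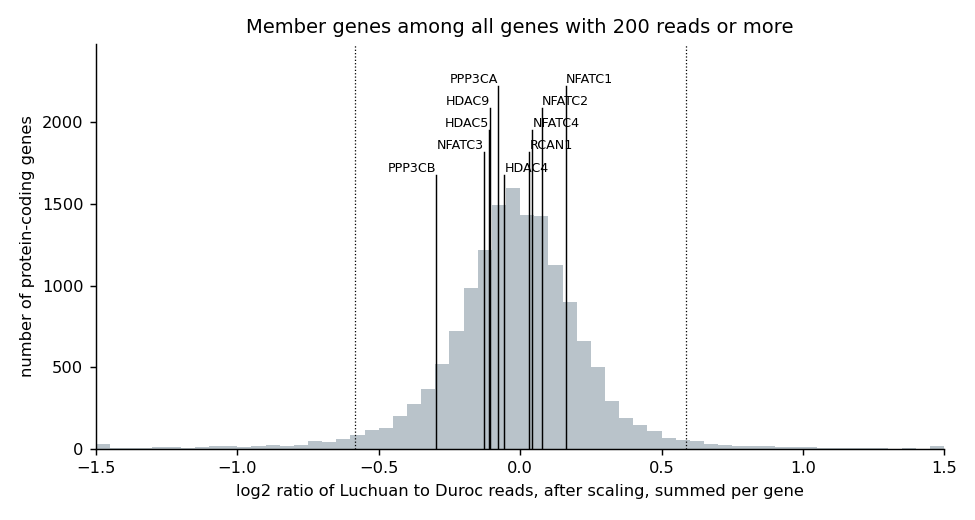
The histogram shows the log2 ratio of summed scaled Luchuan to Duroc reads (x axis) for 15187 protein-coding genes (y axis, number of genes), with values beyond 1.5 on either side placed in the outermost bars. Vertical lines mark the 10 genes and dotted lines a 1.5-fold difference, and all 10 lie between the dotted lines.

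The direction of the sums depended on the scaling. Scaled by the total clean reads of each breed in place of the median ratio of common regions, every log2 ratio was lower by 0.20. NFATC1 then had -0.038 (-0.097 to 0.022) and NFATC2 -0.12 (-0.18 to -0.059), so 0 genes had an interval above 0 and 8 had one below 0. RCAN1 and NFATC4 turned as well, to -0.17 (-0.26 to -0.068) and -0.15 (-0.38 to 0.072). Differences between the genes are the same under either scaling.

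PPP3CA encodes the alpha isoform of the calcineurin catalytic subunit. It spans 325 kb of chromosome 8, from 119429181 to 119754615. Its 61 regions held 7168 Duroc and 4589 Luchuan reads, a log2 ratio of -0.079 (-0.13 to -0.026). The strongest region, chr8:119428594-119429710, covered the gene end of lower coordinate and held 1232 Duroc and 977 Luchuan reads. It was higher in Luchuan, with 0.23 (0.11 to 0.35), and it also lies in the neighbouring gene LOC110261963. Inside the gene the directions were mixed. A region at 162 kb from that end had 645 Duroc and 516 Luchuan reads and 0.24 (0.07 to 0.41), whereas one at 206 kb had 595 and 301 reads and -0.42 (-0.62 to -0.22). Without the regions in other gene bodies the sum of PPP3CA was -0.15 (-0.21 to -0.093). Of its 43 regions with at least 50 reads, 3 had an interval above 0 and 9 one below 0, against 11.9% and 19.6% of all regions with as many reads.

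PPP3CB, the beta isoform of the catalytic subunit, spans 65.8 kb of chromosome 14 from 76239497 to 76305345. Of its 23 regions with at least 50 reads, 22 had fewer scaled Luchuan than Duroc reads, with a median log2 ratio of -0.36. Of 796 genes with 20 or more such regions, 6.03% had at least 90% of them higher in Duroc, a comparison made after these counts had been seen. The strongest region of PPP3CB stood apart from this. It lies at chr14:76304523-76305576 across the gene end of higher coordinate, and with 894 Duroc and 597 Luchuan reads its log2 ratio was -0.018 (-0.17 to 0.13). The region just inside the other end, chr14:76239748-76240306, had 499 and 254 reads and -0.41 (-0.63 to -0.19), and it also lies in the gene MSS51. In the middle of the gene, 2 common regions had 285 and 137 reads with -0.49 (-0.80 to -0.19), and 335 and 151 reads with -0.58 (-0.87 to -0.30). The sum over the gene was -0.23 (-0.30 to -0.16) with common regions alone, and it stayed below 0 under each of the 13 alternatives tried.

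RCAN1 encodes an inhibitor of calcineurin whose own gene is a target of NFAT. It lies on chromosome 13 from 198106256 to 198205727. Its 13 regions, all inside the gene, held 2072 Duroc and 1433 Luchuan reads and a log2 ratio of 0.032 (-0.066 to 0.13). The region across the end of higher coordinate, chr13:198205136-198205989, carried 36.0% of the Duroc and 38.8% of the Luchuan reads of the gene. It held 746 Duroc and 556 Luchuan reads, with 0.14 (-0.021 to 0.30). A region 12.9 kb inside that end was higher in Luchuan, with 374 and 311 reads and 0.30 (0.08 to 0.52). One 32.9 kb inside it was higher in Duroc, with 250 and 131 reads and -0.37 (-0.68 to -0.06). The median over regions was -0.090, on the other side of 0 from the sum.

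NFATC1, which is known as a sensor of slow nerve activity in muscle fibers, lies on chromosome 1 from 145940099 to 146002897. It was among the densest of the 10 genes, with 29.0 regions per 100 kb of gene and flanks against 9.84 in the median gene with any region. Of its 24 regions, 18 had more scaled Luchuan than Duroc reads, 6 with an interval above 0 and 0 with one below 0. Over all regions with at least 50 reads, 11.9% had an interval above 0 and 19.6% one below 0. The share of these with more scaled Luchuan reads was not counted, and their median log2 ratio was -0.056. The strongest lies 6.54 kb outside the end of lower coordinate, at chr1:145932953-145934164, with 1170 Duroc and 870 Luchuan reads and 0.14 (0.01 to 0.26). The larger differences were in weaker regions inside the gene body. Between 17.4 and 39.1 kb from that end, 4 regions had intervals above 0, with log2 ratios of 0.81, 0.63, 1.15 and 0.61. Within the gene body alone the sum was 0.32 (0.22 to 0.41), against 0.16 with the flanks.

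NFATC2, which has been linked to the growth of muscle fibers after birth, lies on chromosome 17 from 52743570 to 52907373. Its 30 regions held 4888 Duroc and 3486 Luchuan reads and a log2 ratio of 0.077 (0.013 to 0.14). The strongest region, chr17:52879114-52880594 inside the gene, had 1015 and 741 reads and 0.11 (-0.028 to 0.25). Of its 25 regions with at least 50 reads, 3 had an interval above 0 and 0 one below 0, against 11.9% and 19.6% of all regions with as many reads. All 3 were neighbours about 25 kb inside the end of lower coordinate. The common region there, chr17:52768679-52769020, had 125 Duroc and 145 Luchuan reads and 0.78 (0.42 to 1.14). The Luchuan-specific regions on either side had 27 and 34 reads with 0.89 (0.12 to 1.68), and 37 and 44 reads with 0.81 (0.15 to 1.49).

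NFATC3 lies on chromosome 6 from 28666458 to 28806432. Its 36 regions held 5602 Duroc and 3467 Luchuan reads and a log2 ratio of -0.13 (-0.19 to -0.067). The strongest region crossed the end of lower coordinate at chr6:28665884-28667288 and had 1122 and 720 reads, with -0.076 (-0.21 to 0.060). Of 34 regions with at least 50 reads, 8 had an interval below 0 and 0 one above 0, against 19.6% and 11.9% of all regions. At 17.6 kb from that end a common region had 194 Duroc and 70 Luchuan reads and -0.90 (-1.32 to -0.51). The Duroc-specific region next to it had 84 and 30 reads and -0.91 (-1.57 to -0.30).

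NFATC4 was the smallest and weakest of the 10 genes, 10.7 kb long on chromosome 7 from 74918982 to 74929688. None of its 6 regions had its midpoint in the gene body, 5 lay within 2.14 kb beyond the end of higher coordinate, and the other lay 5.08 kb beyond the lower end. Together they held 389 Duroc and 271 Luchuan reads, and the log2 ratio of 0.043 (-0.19 to 0.27) showed no difference beyond counting error at this depth. Counting regions up to 50 kb from the gene changed it to -0.45 (-0.61 to -0.30).

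HDAC4, a deacetylase known to respond to the loss of nerve supply, lies on chromosome 15 from 138378237 to 138657266. Its 44 regions held 8567 Duroc and 5575 Luchuan reads, the most of the 10 genes, and a log2 ratio of -0.056 (-0.10 to -0.0068). The strongest region lies just beyond the end of higher coordinate at chr15:138657374-138658406, with 1092 and 778 reads and 0.075 (-0.060 to 0.21). The stretch inside the gene from 104.4 to 201.9 kb from the lower end held 26 of the regions and 62.8% of the Duroc and 63.9% of the Luchuan reads. Its sum was -0.030 (-0.091 to 0.032). Near 53 kb, outside that stretch, 3 neighbouring regions were all higher in Duroc. The middle one, chr15:138430823-138431160, had 163 Duroc and 24 Luchuan reads and -2.17 (-2.88 to -1.58), the largest difference in the 10 genes among regions with at least 50 reads. The common region 1.94 kb below it had 398 and 168 reads and -0.68 (-0.95 to -0.42). The Duroc-specific region 2.04 kb above it had 79 and 32 reads and -0.73 (-1.38 to -0.13).

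HDAC5 lies on chromosome 12 from 19077910 to 19119463. Its 11 regions held 4234 Duroc and 2652 Luchuan reads and a log2 ratio of -0.11 (-0.18 to -0.040). Most were strong, common and close to equal. The region across the lower end, chr12:19077355-19078109, had 554 and 346 reads and -0.11 (-0.31 to 0.081), and it also lies in the gene C12H17orf53. Without the regions in other gene bodies the sum of HDAC5 was -0.16 (-0.25 to -0.076). The strongest region, 17.7 kb inside the other end, had 748 and 434 reads and -0.22 (-0.40 to -0.049). The adjoining region had 237 and 103 reads and -0.63 (-0.99 to -0.30). Single regions with 50 or more reads had an SD of 0.21 among themselves in HDAC5, and counting error alone gives 0.20.

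HDAC9 is the longest of the genes, 1028 kb on chromosome 9 from 87164400 to 88192803, and the sparsest, with 6.39 regions per 100 kb. Its 67 regions held 6836 Duroc and 4296 Luchuan reads and a log2 ratio of -0.11 (-0.16 to -0.051). With common regions alone the ratio was -0.0012 (-0.065 to 0.062). The region across the lower end was weak, with 25 Duroc and 21 Luchuan reads and 0.32 (-0.60 to 1.21), and no region lay within 2 kb of the other end. Accessibility was gathered near the middle of the gene instead. Between 494.5 and 586.8 kb from the lower end lay 27 regions with 61.2% of the Duroc and 62.0% of the Luchuan reads. They include the strongest region, chr9:87659164-87660497, with 788 and 586 reads and 0.14 (-0.020 to 0.29). Of the 50 regions with at least 50 reads, 13 had an interval below 0 and 3 one above 0, where the shares of all regions were 19.6% and 11.9%. They had an SD of 0.46 among themselves, and counting error alone gives 0.29.

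**Figure D3:**
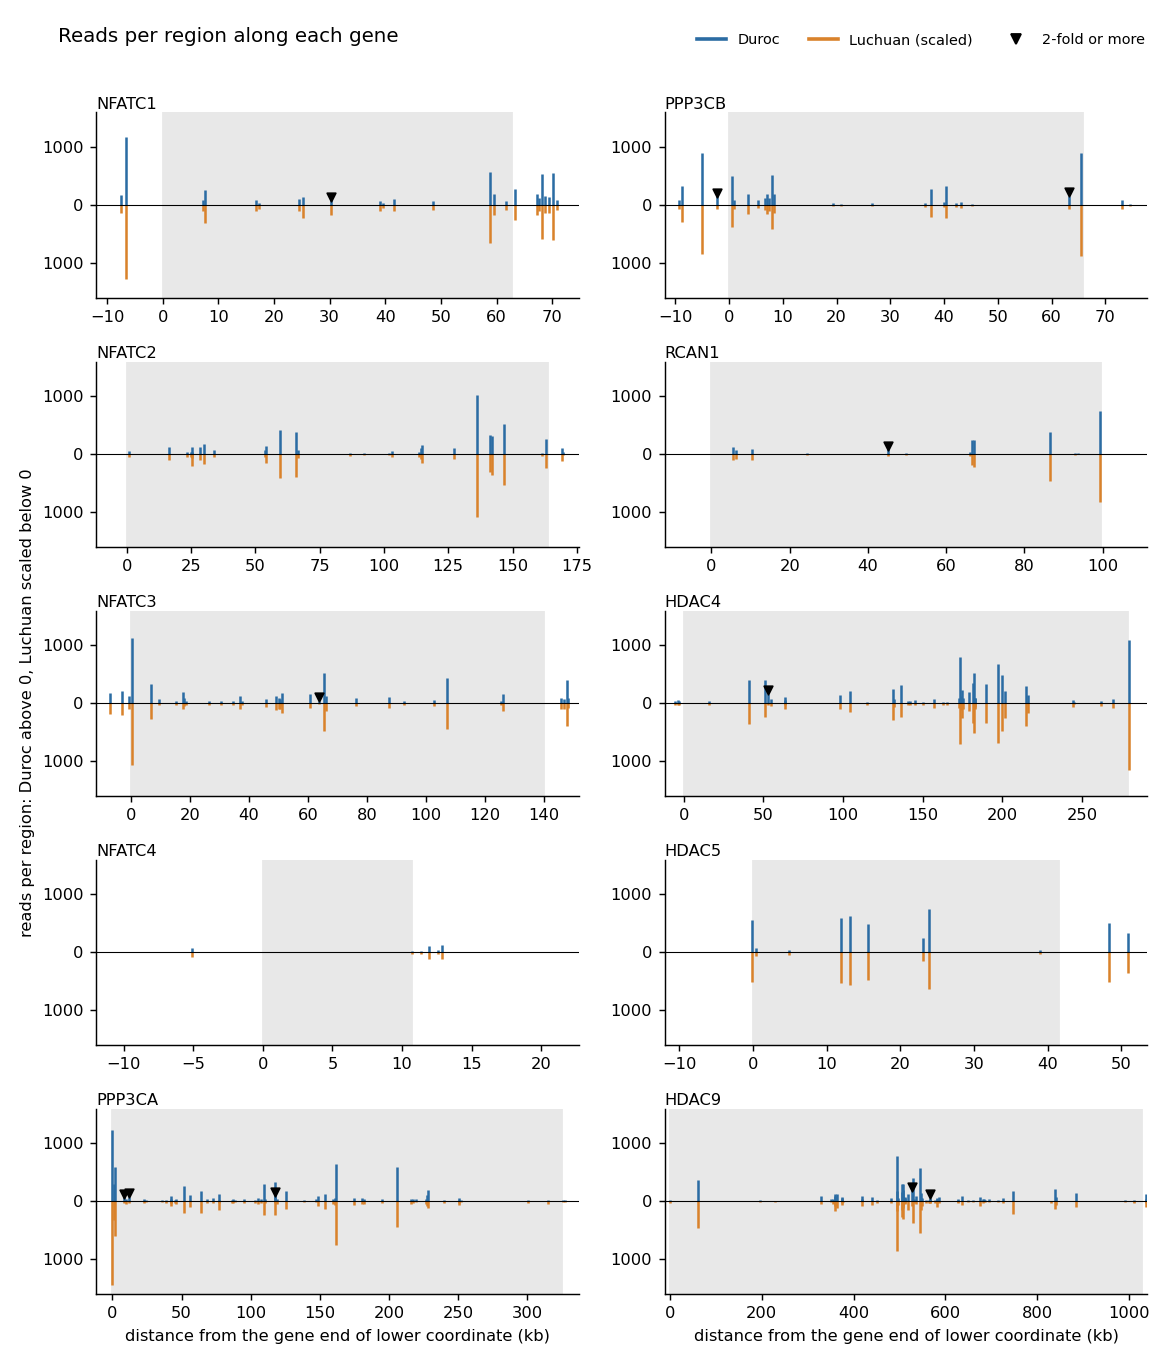
Each panel shows a gene, with the distance from its end of lower coordinate (x axis, kb) and the reads per region (y axis), Duroc upward in blue and scaled Luchuan downward in orange. The gene body is shaded, and triangles mark regions that differed 2-fold or more. The patterns mirror each other in the 10 genes. The tallest regions of PPP3CA, PPP3CB, NFATC3, RCAN1 and HDAC4 stand within 2 kb of a gene end, and those of HDAC9 stand near its middle. How often this holds among all genes was not counted.

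The annotation used here holds no strand, so the start of transcription could not be told from the other end. Of the 20 gene ends, 13 had a region across them or with its midpoint within 2 kb. None of these end regions differed 2-fold, where 2.51% of all regions with at least 50 reads did toward Luchuan and 5.37% toward Duroc. Those shares are not matched for reads. Many of the end regions held 500 reads or more, and 0.996% of all regions with as many reads differed 2-fold in either direction. The log2 ratios of the end regions had a median of -0.018 and ran from -0.61 to 0.32. The lowest lay at the upper end of PPP3CA with 30 reads and the highest at the lower end of HDAC9 with 46 reads. These and the NFATC4 end region with 47 reads were under 50 reads. The interval held 0 for 11 of the end regions, was above 0 for the lower end of PPP3CA and was below 0 for the lower end of PPP3CB. The shares of all regions with at least 50 reads were 11.9% above 0 and 19.6% below 0. In 5 of the 10 genes the strongest region was such an end region. The share of all genes with their strongest region at an end was not counted. The strongest regions of the 10 genes lay between -0.22 and 0.23.

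Of the 319 regions, 261 had at least 50 reads in both breeds together, the minimum set for counting a region as different, and 58 had fewer. Of the 261, 10 were higher in Duroc by 2-fold or more, which is 3.83%, against 5.37% of all 102256 regions with as many reads. Only 1 was higher in Luchuan by 2-fold or more, or 0.383%, against 2.51% of all regions. The split of 10 and 1 became 20 and 0 with the scaling by clean reads. Counting intervals lay below 0 for 49 regions, or 18.8%, against 19.6% of all, and above 0 for 17, or 6.51%, against 11.9% of all. The share with an interval below 0 was near that of all regions, and the other shares were lower than those of all regions. No test of these shares was made, since regions of a gene share their libraries and their locus.

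In all regions a 2-fold difference was less common where reads were many. With 50 to 99 reads, 4 of 76 regions of the 10 genes differed 2-fold in either direction, against 11.6% of all regions. With 100 to 199 reads these were 5 of 79, against 9.79%, and with 200 to 499 reads 2 of 57, against 6.53%. With 500 reads or more it was 0 of 49, against 0.996%. Across the 261 regions, log2 reads of the breeds had a Pearson correlation of 0.95, given as a description over regions that share both libraries.

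All 11 regions that differed 2-fold were specific to a breed by the authors' peak marks, and none was common. The marks come from the same libraries as the ratios, so this is no separate evidence. The 11 regions held 52 to 247 reads, were 150 to 401 bases long, and none lay within 2 kb of a gene end. The shares of breed-specific peaks and of gene ends among all regions past 2-fold were not counted. The region of HDAC4 is given above. The only one higher in Luchuan was chr1:145970123-145970514 in NFATC1, with 79 Duroc and 119 Luchuan reads and a log2 ratio of 1.15 (0.73 to 1.58). PPP3CA had 3, at 8.58, 11.8 and 117 kb from its lower end, with 74 and 21, 82 and 21, and 96 and 26 Duroc and Luchuan reads. The last of these, chr8:119546419-119546682, had -1.30 (-2.01 to -0.68) and lay beside a common region with 330 and 159 reads and -0.49 (-0.77 to -0.21).

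PPP3CB had 2 such regions. One at chr14:76237108-76237318, between the gene and ANXA7, had 153 Duroc and 45 Luchuan reads and -1.19 (-1.71 to -0.71). The other at chr14:76302503-76302861, which also lies in a long noncoding RNA gene, had 157 and 46 reads and -1.20 (-1.71 to -0.72). The latter was 2.37 kb from the strong and equal region across the gene end. In RCAN1, chr13:198151266-198151621 had 80 and 19 reads and -1.48 (-2.31 to -0.77). In NFATC3, chr6:28730263-28730412 had 43 and 9 reads and -1.63 (-2.91 to -0.64). HDAC9 had chr9:87691723-87692123 with 189 and 58 reads and -1.13 (-1.59 to -0.71), and chr9:87730156-87730408 with 58 and 17 reads and -1.18 (-2.08 to -0.41). NFATC2, NFATC4 and HDAC5 had none.

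**Figure D4:**
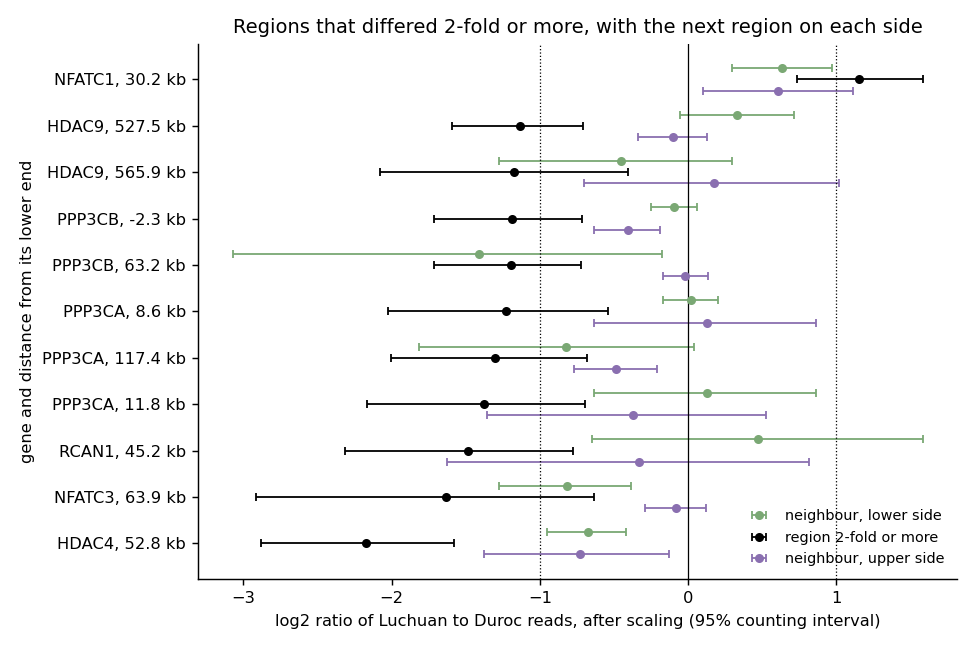
For each of the 11 regions that differed 2-fold or more (black), the x axis gives the log2 ratio of scaled Luchuan to Duroc reads with its 95% counting interval, beside the next region on the lower (green) and upper (purple) side. Rows name the gene and the distance from its lower end in kb. Of the 22 neighbours, which were not chosen by their ratio, 1 differed 2-fold. The PPP3CA region between those at 8.6 and 11.8 kb is shown and counted for both. In NFATC1 and HDAC4 the intervals of both neighbours lie wholly on the side of 0 of the region between them.

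The next region on either side was in most cases closer to 0. Choosing the 11 regions for a difference of 2-fold or more can by itself give such a pattern, and its part was not tested. Of the 22 neighbours, 1 differed 2-fold, with 25 Duroc and 6 Luchuan reads and -1.41 (-3.07 to -0.17) in PPP3CB, under the minimum of 50 reads. The PPP3CA region with 38 and 28 reads lies between those at 8.58 and 11.8 kb and is counted for both. Among all regions with at least 50 reads, 5.37% were 2-fold or more higher in Duroc and 2.51% in Luchuan. The neighbours had no minimum of reads, so these shares cannot be compared with them directly. The median of the neighbours was -0.097 and they ran from -1.41 to 0.63. In HDAC4 and in NFATC1 the neighbours on both sides had intervals on the same side of 0 as the region itself. In NFATC1 they had 143 and 150 reads with 0.63 (0.29 to 0.97), and 68 and 70 reads with 0.61 (0.10 to 1.11). Values on both sides of the 10 kb limit were as follows. In PPP3CB the region 9.28 kb out, inside the limit, had 90 and 48 reads and -0.34 (-0.88 to 0.18). In NFATC3 the region 10.3 kb out, beyond it, had 222 and 158 reads and 0.075 (-0.23 to 0.37). In RCAN1 the nearest region beyond the limit, 11.5 kb out, had 44 and 12 reads and -1.27 (-2.37 to -0.36).

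The other genes of the pathway were taken as 5 lists of 56 genes, of which 55 had at least 200 reads and PPP3R2 had no region. Their median log2 ratio was -0.0031, and 2 of the 55 differed 1.5-fold, 1 in each direction, against the 1.59% and 2.41% of all genes given above. RCAN3, which encodes a relative of RCAN1, was higher in Duroc. Its single region had 388 Duroc and 153 Luchuan reads and -0.78 (-1.06 to -0.50). CAMK4, a calmodulin-dependent kinase, was higher in Luchuan, but with 128 Duroc and 147 Luchuan reads in 6 regions, and 0.76 (0.41 to 1.12).

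Among the 14 measured calcineurin subunits and modulators, 6 had an interval below 0 and 2 one above 0, against 27.2% and 22% of all genes. The median was -0.076. Between the subunits the directions differed. The third catalytic subunit gene PPP3CC was the highest of the list, with 1669 Duroc and 1366 Luchuan reads and 0.28 (0.17 to 0.38). The regulatory subunit gene PPP3R1 had 2996 and 1570 reads and -0.37 (-0.46 to -0.28). MYOZ3, which encodes a Z-disc protein that binds calcineurin, had 4519 and 2285 reads and -0.42 (-0.49 to -0.35), and its relatives MYOZ1 and MYOZ2 had intervals that held 0.

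Of the 18 genes for calmodulin and kinases of the class IIa deacetylases, 6 had an interval above 0 and 4 one below 0, where the shares of all genes were 22% and 27.2%. The lowest was CALM3, a calmodulin gene, with 1912 Duroc and 984 Luchuan reads and -0.39 (-0.51 to -0.28). SIK2, a salt-inducible kinase, had 3359 and 3038 reads and 0.42 (0.35 to 0.49). The NFAT kinases with NFAT5 ran from -0.075 for DYRK1A to 0.18 for CSNK1A1. HDAC7 and the partners of these deacetylases ran from -0.21 for YWHAE to 0.20 for YWHAB, with HDAC7 itself, the remaining class IIa gene, at -0.0052 (-0.073 to 0.063). The genes of calcium release and entry ran from -0.27 for ORAI2 to 0.26 for ITPR3.

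**Figure D5:**
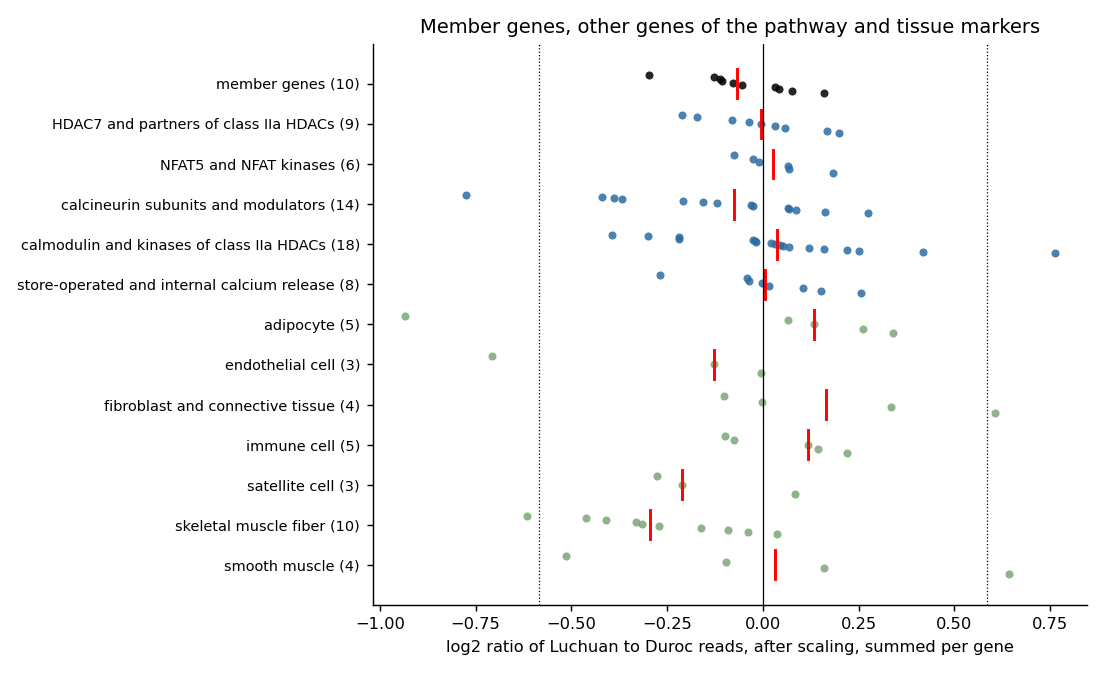
The x axis gives the log2 ratio of scaled Luchuan to Duroc reads summed per gene, with 0 as a solid and a 1.5-fold difference as dotted lines. Each point is a gene with at least 200 reads, in the 10 genes (black), the pathway lists (blue) and the marker lists (green), red bars are medians, and numbers in parentheses count the genes. The medians are -0.067 for the 10 genes and -0.29 for the skeletal muscle fiber markers.

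The muscle tissue holds several cell types, and fewer cells of a type cannot be told apart from less accessible chromatin per cell. Of the 10 skeletal muscle fiber markers, 8 had an interval below 0 and 1 above it, against 27.2% and 22% of all genes, shares not matched for reads. They had a median of -0.29 and a range from -0.62 for MYH4 to 0.036 for TTN. PPP3CB, at -0.30, lay near that median, and the part of this shift in its value was not tested. The 5 measured immune markers ran from -0.10 to 0.22, and PTPRC, CD3E and CD2 had under 200 reads. The 3 measured endothelial markers ran from -0.71 for TIE1 to -0.0054 for VWF, and CDH5, KDR and TEK had under 200 reads. The 5 adipocyte markers ran from -0.93 for LEP to 0.34 for PLIN1, the 4 measured fibroblast markers from -0.10 to 0.61, the 4 smooth muscle markers from -0.51 to 0.64 and the 3 satellite cell markers from -0.28 to 0.083. Of the 4 liver and neuron genes taken as tissue that was not sampled, APOA1 alone had 200 reads, with a log2 ratio of -0.065.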

How the data were processed

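Per the labels and the study's methods, the authors filtered reads with Trimmomatic (v0.36), aligned them with Bowtie2 to Sus scrofa 11.1 and detected peaks with MACS2. Duplicate removal, the transposase shift and the pooling of replicates are not given in the sources used here. The authors deposited raw read counts per peak interval, 1 column per breed, named for the breed and no replicate. The deposited table also holds a rescaled log2 fold change, a log2 average signal and a p-value of the authors' comparison, which were not used.

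Starts were read as counted from 0, since the shortest interval is then 150 bases. Common intervals that touched or overlapped were joined and represented by the longest of them. Genes came from the 19550 protein-coding genes of RefSeq for Sscrofa11.1, and all 10 members matched by symbol. Ratios used 0.5 added to each count. A region needed 50 reads and a gene 200 reads to be counted. With 1 count per breed no test was made. The scaling, ratios and counting intervals were tested on simulated counts with 200 regions changed 4-fold and no spread between animals. Merging, the assignment to genes, the sums and the end regions were not tested in this way. The members and lists were chosen with earlier results of these data known. Named regions are those at gene ends, the strongest of each gene and those past 2-fold, and named genes of the lists are those past 1.5-fold, the highest and the lowest. Regions that adjoin these or have intervals beside 0, the windows of 100 kb, and PPP3R1, MYOZ1, MYOZ2, MYOZ3, SIK2 and HDAC7 were named after their values had been seen. Alternatives covered scaling, windows, merging, peak class and thresholds. Counting intervals came from SciPy 1.17.1, tables from pandas 2.3.3 with NumPy 2.4.6, and plots from Matplotlib 3.10.9, under Python 3.11.15.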

Additional observations from a re-analysis of the deposited data

How the results depend on the processing

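No paired analysis was possible because the table holds 1 count column per breed, and for the same reason no animal could be left out. The motif search was not run, since no genome was used. The interval with the most reads as representative, a pseudocount of 1 and sums over regions of 50 reads or more ended no call on the 10 genes and turned no value where they applied. Scaling by total reads in regions left 4 genes with an interval below 0, without PPP3CA and HDAC4, and turned the median at gene ends to 0.013. A running median at the same signal left 5, without HDAC4, with 0.12 for NFATC4 and a gene-end median above 0, and each row as its own region left 5, without HDAC4. Scaling by the study's clean reads gave log2 ratios of -0.038 for NFATC1, -0.12 for NFATC2, -0.15 for NFATC4 and -0.17 for RCAN1, all turned in direction, and -0.33 for NFATC3, -0.28 for PPP3CA, -0.30 for HDAC9, -0.31 for HDAC5, -0.50 for PPP3CB and -0.25 for HDAC4. Regions past 2-fold were then 20 toward Duroc and 0 toward Luchuan, genes with an interval above 0 were 0, pathway genes past 1.5-fold were 4, and the median at gene ends was -0.22. Without scaling the ratios were -0.40 for NFATC1, -0.49 for NFATC2, -0.52 for NFATC4 and -0.53 for RCAN1, again turned, and -0.69 for NFATC3, -0.64 for PPP3CA, -0.67 for HDAC9, -0.67 for HDAC5, -0.86 for PPP3CB and -0.62 for HDAC4. The counts were then 55 regions toward Duroc and 0 toward Luchuan, 6 genes past 1.5-fold, 0 intervals above 0 and 10 below 0, 24 pathway genes past 1.5-fold and a median at gene ends of -0.58. These shifts follow from the constant multiplier. Gene bodies alone gave 0.32 for NFATC1 and -0.15 for PPP3CA, and no value for NFATC4, which had no region there. A window of 2 kb gave 0.28 for NFATC1, and one of 50 kb gave -0.45 for NFATC4 and -0.0023 for RCAN1, both turned, 18 regions toward Duroc and 1 pathway gene past 1.5-fold. Common regions alone gave -0.025 for PPP3CA, -0.0012 for HDAC9 and -0.23 for PPP3CB, 0 regions past 2-fold in either direction, 3 genes with an interval below 0 and 1 pathway gene past 1.5-fold. The median over regions was -0.090 for RCAN1, also turned, and -0.0055 for HDAC4, and PPP3CA had -0.15 without regions in other gene bodies. A minimum of 20 reads gave 2 regions toward Luchuan, and one of 100 reads gave 6 toward Duroc. A limit of 1.5-fold gave 42 regions toward Duroc and 10 toward Luchuan, and one of 3-fold gave 2, 0 and 0 pathway genes. The cause of the other differences was not tested.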
